A study of Mus musculus with 12 samples.

Results

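Day 8 was set against day 5 of differentiation in C2C12 cells, which are mouse myoblasts of an immortalised line and leave the cell cycle and fuse into multinucleated myotubes when serum is lowered. The series holds 12 arrays in 4 stages of 3: proliferating cells in medium with 10% fetal bovine serum, and cells moved at 80 to 90% confluence into 2% horse serum and kept there for 2, 5 or 8 days. All stages are the same line, and none carries a transgene or a drug. The 6 arrays of days 5 and 8 enter this comparison, and the other 6 serve to estimate the spread and to place the levels. The labels number 3 samples a stage without saying that they came from separate cultures, so the p-values rest on the spread from array to array, which may be technical. RNA was taken from whole dishes, so fewer cells of a kind and less RNA per cell cannot be told apart.

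A probe was tested when the scanner's software flagged it as well above background on all 3 arrays of day 5 or all 3 of day 8. A probe said to be below background at a stage was flagged so on none of its 3 arrays. This kept 21921 of the 37246 probes, of which 20579 passed at both stages, 952 on all 3 arrays of day 8 but fewer of day 5, and 390 on all 3 of day 5 but fewer of day 8. A level below is the log2 intensity of a probe minus the 75th percentile of its array, so that 0 is the signal of that percentile and 1 unit is a doubling. A difference is the day 8 mean minus the day 5 mean with its standard error (SE), and a gene was called higher or lower where the adjusted p of limma, a linear model fitted across all probes, is under 0.05. Levels of different probes cannot be compared with each other, because probes bind with different strength.

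Myotubes mature by exchanging early for late forms of their proteins. Embryonic and neonatal myosin heavy chains give way to adult ones, the fetal gamma subunit of the acetylcholine receptor gives way to the epsilon subunit at the innervated endplate, and the calcium stores of the sarcoplasmic reticulum grow. C2C12 dishes also keep mononucleated cells beside the myotubes. Textbook markers of the myotube were present at both stages: Acta1, the skeletal alpha actin, Ckm, the muscle creatine kinase, Tnnt3, the fast troponin T, and Myog, myogenin, were well above background on all 6 arrays.

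The arrays were not balanced over slides. Day 5 array 3 shared its slide with the 3 day 8 arrays, and day 5 arrays 1 and 2 lay on another slide with 2 arrays of day 2. Across probes, day 5 array 3 correlated with day 5 arrays 1 and 2 at 0.986 to 0.989 and with day 8 at 0.984 to 0.985, against 0.994 between day 5 arrays 1 and 2. It also had the smallest share of spots well above background of the 6 arrays, 56.9% against 60.5% to 69.5%. Each list and gene is therefore also given within the shared slide, as the day 8 mean minus day 5 array 3, where this matters.

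At the adjusted threshold 2927 of 21921 probes (13.4%) differed, 1416 higher (6.46%) and 1511 lower (6.89%) at day 8. Which direction had more calls depended on the scaling: quantile normalization gave 1657 higher and 1236 lower (57.3% higher), and taking the percentile from only those probes that were bright enough on every array gave 1642 and 1281 (56.2%). The median difference over all probes was -0.06, and 412 probes rose and 618 fell more than 2-fold among those called. Among 13209 named genes, each taken by its brightest tested probe, 1862 were called (14.1%), 889 higher (6.73%) and 973 lower (7.37%). The median difference of these genes was -0.07. All 3 day 8 arrays lay above all 3 day 5 arrays for 2273 named genes (17.2%) and below them for 2796 (21.2%). With the slide as a block 794 probes (3.62%) were called, 459 higher and 335 lower, of which 555 were also called without it, and none of the 2927 changed its sign. Of 126 genes and transcripts that were both picked by the naming rule and called, 74 were not called with the block. Without day 5 array 1, 2 or 3 the number of probes called was 1207, 1781 or 3082, and without day 8 array 1, 2 or 3 it was 1528, 1855 or 1570. Leaving out day 5 array 3, the array on the day 8 slide, moved the share of higher calls from 48.4% to 37.5%. Leaving out spots flagged as non-uniform, which kept 11074 probes, moved it to 27.9% with a median of -0.22 over all probes, and to 53.7% where the percentile still came from all spots.

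**Figure D1:**
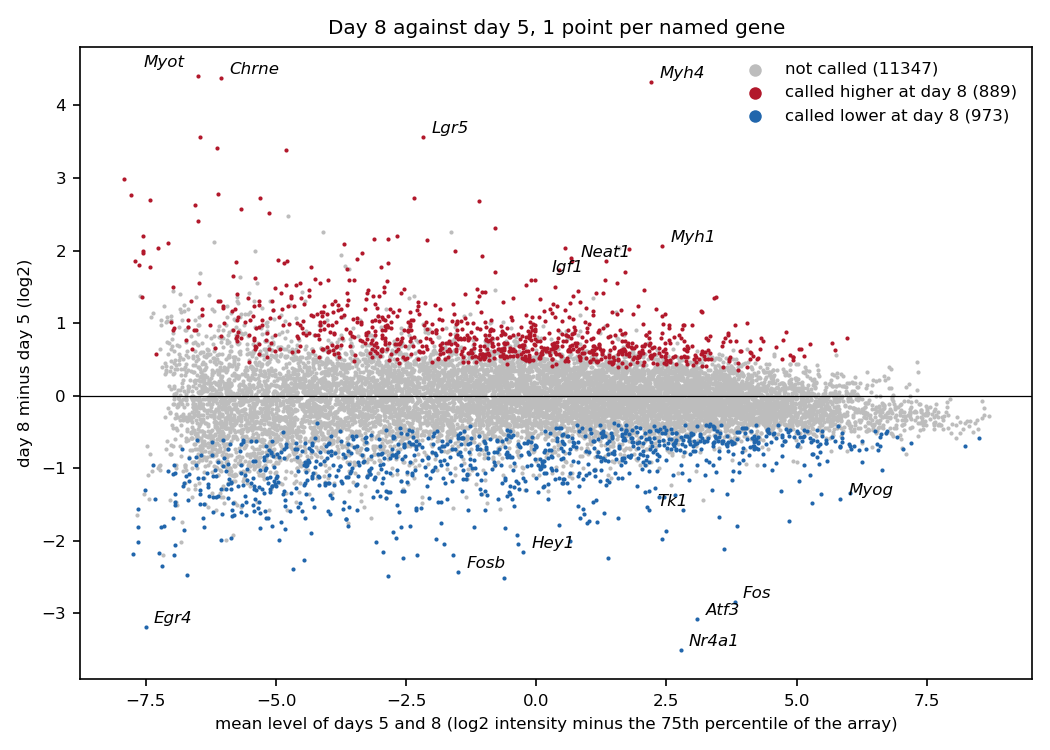
Difference between day 8 and day 5 (vertical, log2) against the mean level of both stages (horizontal, log2 intensity minus the 75th percentile), 1 point for each of 13209 named genes. The 889 genes called higher are red and the 973 called lower are blue, and Myh4, Chrne and Lgr5 lie at the top and Nr4a1, Atf3 and Fos at the bottom.

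Adult fast myosin heavy chains rose, and the embryonic and neonatal ones did not pass the test. Of 8 myosin heavy chain genes tested, 3 were called higher and 0 lower, a median difference of 0.39 (0.46 within the slide) compared to -0.07 for named genes in general. Myh4, which encodes the fast IIb chain, stood at -0.02, -0.20 and 0.37 on the day 5 arrays and at 4.65, 4.0 and 4.46 on the day 8 arrays. The stages did not overlap, which the rule for the largest rises required of Myh4. Of all named genes 17.2% had all day 8 arrays above all day 5 arrays. For Myh4 the gap was wider than the whole range within either stage. Its level rose 20-fold (4.32 ± 0.24 SE, limma adjusted p = 1.36e-05), and by 4.0 within the slide. At the earlier stages Myh4 had means of -6.29 in proliferating cells and -4.49 at day 2, so it climbed at every stage.

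Myh1, the fast IIx chain, stood at 1.15, 1.63 and 1.36 at day 5 and at 3.53, 3.49 and 3.31 at day 8. It was higher on every day 8 array, by 2.06 ± 0.25 (adjusted p = 0.000926). Myh2, the IIa chain, was dim, at -5.42, -5.10 and -5.09 at day 5 and at -3.73, -3.19 and -3.40 at day 8. Its rise of 1.77 ± 0.49 (adjusted p = 0.037) ended with the slide block (adjusted p = 0.228; 0.00637 to 0.274 over its alternatives). Myh3, the embryonic chain, was at 4.74, 5.23 and 5.05 at day 5 and at 5.01, 5.03 and 5.18 at day 8, which overlap. The difference of Myh3 was 0.06 ± 0.21 and that of Myh8, the neonatal chain, 0.51 ± 0.26 (adjusted p = 0.87 and 0.224). Myh7, the slow chain, differed by 0.27 ± 0.22 and did not pass either. These genes are close copies of each other, and how far a probe for one also binds another was not tested.

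At the acetylcholine receptor 1 of 12 genes tested was called, Chrne, which encodes the epsilon subunit of the adult receptor. It read -7.77, -8.04 and -8.92 on the day 5 arrays, where it was not well above background on any, and -3.65, -3.97 and -3.96 on the day 8 arrays, where it was on all 3. Chrne was thus at least 12.3-fold higher at day 8, the bound being the day 8 mean over the lowest signal well above background on each day 5 array or the probe's own where higher (adjusted p = 0.000221). The bound holds for the processed signal: with normexp correction, which lifts dim signals, the difference of Chrne was 1.21 and was still called. It had not been well above background on any array of proliferating or day 2 cells. Chrng, the fetal gamma subunit that epsilon replaces, was at 4.10, 4.42 and 4.20 at day 5 and at 3.92, 3.91 and 4.01 at day 8. All 3 day 8 arrays lay below day 5, but the difference of -0.29 ± 0.20 did not pass (adjusted p = 0.345), nor did that of the alpha subunit Chrna1 (-0.29 ± 0.19). The median of the list was -0.20.

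**Figure D2:**
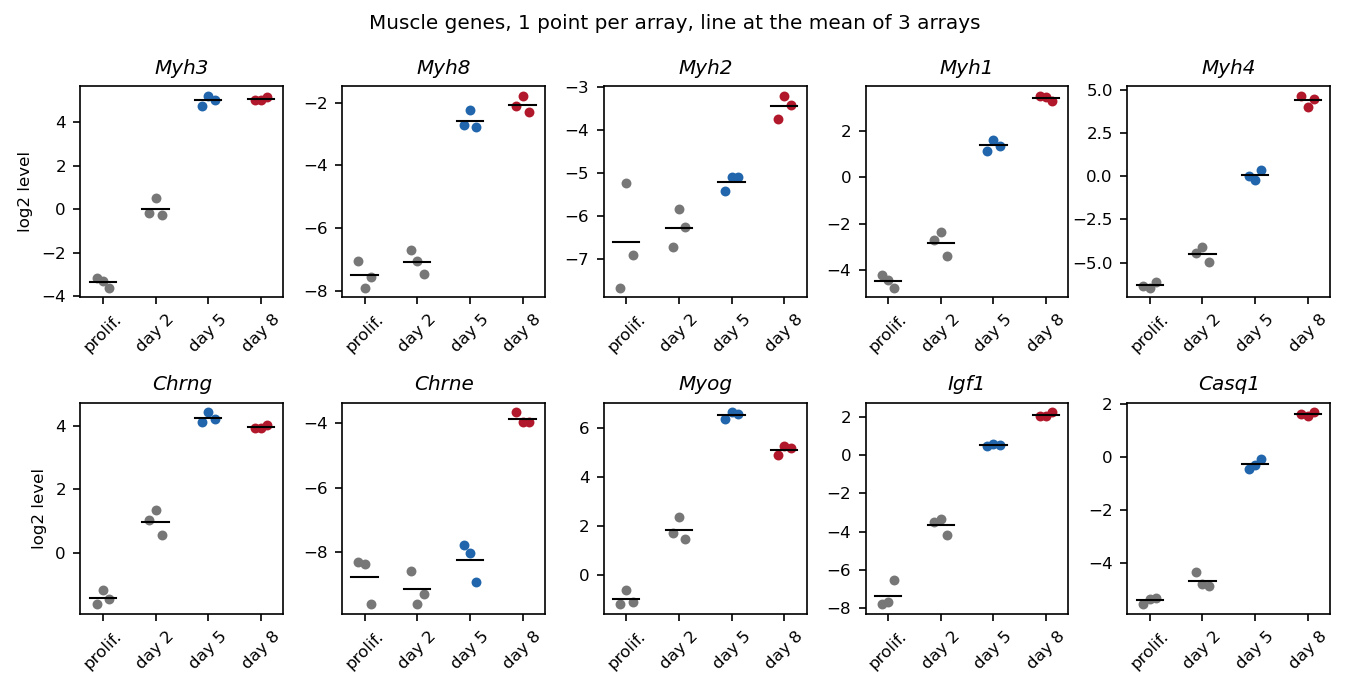
Level of 10 muscle genes on every array (vertical, log2 intensity minus the 75th percentile; each panel has its own scale) at the 4 stages, with blue points for day 5, red for day 8 and a line at the mean of 3 arrays. Myh4 and Chrne rise after day 5, Myh3 stays between 4.74 and 5.23 on the 6 arrays, and Myog falls from a day 5 mean of 6.55 to 5.13.

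Of 20 genes of excitation-contraction coupling 3 were called higher and 2 lower (25% against 14.1% of all named genes), with a median of 0.01. Casq1, calsequestrin, which binds calcium inside the store, read -0.46, -0.30 and -0.10 at day 5 and 1.61, 1.53 and 1.68 at day 8. The rise of 1.90 ± 0.16 (adjusted p = 0.00015) was 1.71 within the slide. Pvalb, parvalbumin, a calcium buffer of fast fibres, went from -4.46, -4.62 and -3.92 to -2.18, -2.65 and -2.28 (1.96 ± 0.54, adjusted p = 0.0357). That call ended with the slide block (adjusted p = 0.264; 0.000784 to 0.337 over its alternatives). Asph, which yields the store proteins junctin and junctate, rose by 0.79 ± 0.13. Cacng1, the gamma subunit of the muscle calcium channel, fell by 1.34 ± 0.22 and Sln, sarcolipin, which inhibits the calcium pump, fell by 1.31 ± 0.37. The pump itself, Atp2a1, and the release channel Ryr1 had differences of -0.46 and 0.05 and did not pass.

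Among 22 genes of the sarcolemma and its channels 3 rose and 1 fell (18.2%, near the 14.1% of all named genes; median 0.11). Kcnj12 and Kcnj2 encode inward rectifier potassium channels, which set the resting potential of muscle. Kcnj12 was nearly constant within stages, at -2.58, -2.61 and -2.49 and then at -0.60, -0.64 and -0.47. It rose 3.96-fold (1.99 ± 0.11, adjusted p = 1.36e-05). Kcnj2 went from 0.55, 0.53 and 0.63 to 2.15, 1.82 and 1.98 (1.41 ± 0.16, adjusted p = 0.000685). Trim72, a membrane repair protein, fell by 1.12 ± 0.27, a call that ended with the slide block (adjusted p = 0.363; 0.00392 to 0.363).

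Most contractile genes did not pass the test between days 5 and 8, and neither did most named genes, of which 14.1% were called. The share called was 11.1% for actin, troponin and tropomyosin and 18.5% for the Z-disc and M-band. For myosin light chains and binding proteins it was 22.2%. Of 18 actin, troponin and tropomyosin genes 0 rose and 2 fell, with a median of -0.05; Tnni3, the cardiac troponin I, fell by 1.36 ± 0.28 and Tpm2, beta tropomyosin, by 0.83 ± 0.17. Both calls ended with the slide block (adjusted p = 0.0812, 0.000384 to 0.103 over the alternatives of Tnni3; 0.146, 0.00994 to 0.147 for Tpm2). Acta1 had a difference of -0.39 ± 0.22, the cardiac actin Actc1 -0.01 ± 0.25, Tnnt3 0.15 ± 0.26 and the slow troponin I Tnni1 -0.12 ± 0.20. Of 27 Z-disc and M-band genes 3 rose and 2 fell (median -0.13, -0.01 within the slide). Myot, myotilin, an actin-bundling protein of the Z-disc, read -10.07, -8.31 and -7.74 at day 5, with 0 arrays well above background, and -4.41, -4.35 and -4.11 at day 8. It was at least 9.09-fold higher (adjusted p = 0.00362; with normexp the difference was 1.21), and with the slide block the call ended (adjusted p = 0.0858; 0.002 to 0.0858). Tcap, telethonin, rose by 1.18 ± 0.23 and Myoz2, calsarcin, by 0.79 ± 0.14, and both calls likewise ended with the slide block (adjusted p = 0.105, 0.00706 to 0.152 over the alternatives of Tcap; 0.127, 0.00452 to 0.145 for Myoz2). Cryab, a small heat shock protein, and Flnc, filamin C, fell by 0.78 ± 0.22 and 0.69 ± 0.17. Of 9 myosin light chain and binding protein genes, Mybpc2 (1.09 ± 0.30) and Mybpc1 (0.83 ± 0.20), the fast and slow myosin-binding proteins C, were called higher and 0 genes lower. The call of Mybpc1 was lost under 7 alternatives and that of Mybpc2 under 10, with the slide block among them, where its difference was 0.50 (adjusted p = 0.461; 0.0112 to 0.482).

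The factors that drive myogenesis did not all move the same way. Of 11 tested, 1 rose and 3 fell (36.4% called against 14.1% of all named genes), with a median of -0.06. Myog was at 6.40, 6.67 and 6.59 at day 5 and at 4.91, 5.28 and 5.19 at day 8. It fell by 1.42 ± 0.24 (adjusted p = 0.00442), and by 1.46 within the slide, where the block gave an adjusted p = 0.057 (0.00291 to 0.0731 over its alternatives). Its day 8 mean of 5.13 was still above the 1.84 of day 2 and the -0.98 of proliferating cells. Myod1, the determination factor, fell by 0.57 ± 0.17 (adjusted p = 0.0458), and this call was lost under 14 alternatives. Mef2c, a partner of the myogenic factors, read -3.95, -4.45 and -4.39 at day 5 and -3.03, -2.61 and -3.41 at day 8 (1.25 ± 0.22, adjusted p = 0.00576; 0.0522 with the slide block and 0.0047 to 0.112 over its alternatives). Mef2b fell by 0.89 ± 0.24 on the 3 arrays and by 0.31 within the slide. Myf6, the factor of mature fibres, had a difference of 0.16 ± 0.18, and Mymk, the fusion protein myomaker, one of -0.18 ± 0.18.

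Of the growth factors of muscle tested by name, Igf1 was called and Igf2 was not. Igf1, insulin-like growth factor 1, read 0.50, 0.57 and 0.52 at day 5 and 2.04, 2.05 and 2.26 at day 8, a rise of 1.59 ± 0.31 (adjusted p = 0.00926), and its other 3 probes rose by 1.52, 1.75 and 1.98. With the slide block its adjusted p was 0.0955 at the same size of 1.60 (0.000872 to 0.124 over its alternatives). Igf2, at 3.92, 3.97 and 3.96 and then 3.41, 3.38 and 3.44, lay lower on every day 8 array, but its difference of -0.54 ± 0.29 did not pass (adjusted p = 0.245). The other Igf2 probes had differences of -0.62 and -0.78 and did not pass either, while Igf2 was called lower under 1 alternative. Irs1, the adaptor of both receptors, rose by 0.68 ± 0.14 and Igfbp2, an IGF carrier, fell by 0.66 ± 0.15, among 16 genes with 2 called higher and 1 lower (18.8% against 14.1% of all named genes). Both of these calls ended with the slide block (adjusted p = 0.0729, 0.00994 to 0.382 over the alternatives of Irs1; 0.152, 0.0184 to 0.29 for Igfbp2). Mstn, myostatin, an inhibitor of muscle growth, was well above background on 2 day 5 arrays and 0 day 8 arrays and was not tested. It read -5.39, -5.80 and -6.82 at day 5 and -7.93, -7.81 and -7.73 at day 8.

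Immediate early genes, whose transcripts rise within minutes of a growth or stress signal and decay quickly, fell as a group. Of 24 in the list 22 were tested, 0 were called higher and 13 lower, 59.1% against 14.1% of all named genes, with a median of -0.98. The list fell by as much within the slide (median -0.92). With the slide block 7 were called lower, where 3.51% of named genes were called, and leaving out any 1 array gave 12 or 13. Among the 13, 11 had their highest mean of the 4 stages at day 5 and 8 had their lowest at day 8. Since they were called lower at day 8 than at day 5, day 8 could not be their highest nor day 5 their lowest. At day 8, 5 of them were still above proliferating cells.

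The 250 bases before the start site of the 4 called lower by the most are shown with the capitals marking TGACG, the core of the cyclic AMP response element, read on either strand. It stands in 6 of the 10 called members with a promoter in the RefSeq table (60%), in 11 of 19 of the list (57.9%) and in 2725 of 10514 promoters of tested genes (25.9%). The letters TGACG were chosen after results were seen, and other motifs were searched too. The full cyclic AMP response element stands in 1 of the same 10 promoters (10% against 2.51% of tested genes). The MEF2 core stands in 3 (30% against 2.8%) and the E-box in 8 (80% against 58.1%). The CArG box stands in 1 (10% against 1.31%) and its looser spacing in 9 (90% against 79.4%). The interferon and E2F cores described below stand in 0. Among promoters of all genes called lower, 24.2% hold TGACG. The sequences are RefSeq's for GRCm38.p6, 5′ to 3′ in the direction of the gene, and a match is a description of letters only. Nr4a1 spans chr15:101266596-101266845 (+), Atf3 chr1:191183334-191183583 (-), Fos chr12:85473640-85473889 (+) and Fosb chr7:19310046-19310295 (-).
Nr4a1: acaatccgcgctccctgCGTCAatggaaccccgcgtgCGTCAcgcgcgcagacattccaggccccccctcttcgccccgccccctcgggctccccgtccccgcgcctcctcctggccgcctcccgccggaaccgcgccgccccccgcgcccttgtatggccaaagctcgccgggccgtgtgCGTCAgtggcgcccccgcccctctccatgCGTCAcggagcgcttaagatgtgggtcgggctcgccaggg
Atf3: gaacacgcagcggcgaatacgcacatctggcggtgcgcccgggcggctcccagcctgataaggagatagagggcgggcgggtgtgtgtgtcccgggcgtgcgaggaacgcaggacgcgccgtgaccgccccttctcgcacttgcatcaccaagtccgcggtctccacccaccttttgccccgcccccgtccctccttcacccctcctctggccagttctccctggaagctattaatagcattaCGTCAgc
Fos: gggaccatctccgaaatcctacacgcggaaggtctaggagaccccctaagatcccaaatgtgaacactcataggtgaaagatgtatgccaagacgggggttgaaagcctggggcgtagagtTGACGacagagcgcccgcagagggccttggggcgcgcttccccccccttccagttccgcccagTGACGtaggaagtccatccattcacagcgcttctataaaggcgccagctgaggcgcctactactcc
Fosb: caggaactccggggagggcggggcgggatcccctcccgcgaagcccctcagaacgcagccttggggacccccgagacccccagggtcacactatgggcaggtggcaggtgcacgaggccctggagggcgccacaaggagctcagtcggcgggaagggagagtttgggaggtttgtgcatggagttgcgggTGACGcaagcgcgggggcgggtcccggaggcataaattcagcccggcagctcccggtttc

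Nr4a1, an orphan nuclear receptor induced by activity and cyclic AMP, led the falls. It read 4.95, 4.44 and 4.18 at day 5 and 1.14, 0.78 and 1.13 at day 8, and returned to the means of proliferating cells and day 2 (1.1 and 1.20). The fall was 11.4-fold (-3.51 ± 0.21, adjusted p = 1.74e-05), and -3.17 within the slide. Atf3, a stress-induced repressor of the same family as the cyclic AMP response factors, went from 5.09, 4.54 and 4.27 to 1.76, 1.22 and 1.67. It fell 8.46-fold (-3.08 ± 0.22, adjusted p = 6.83e-05), below its mean in proliferating cells of 2.79.

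Fos, a partner in the AP-1 factor, read 5.36, 5.22 and 5.12 at day 5 and 2.28, 2.73 and 2.15 at day 8. It fell 7.2-fold (-2.85 ± 0.18, adjusted p = 2.87e-05) and stayed above its mean of -0.03 in proliferating cells. Fosb, its relative, fell from 0.05, -0.11 and -0.78 to -2.82, -2.62 and -2.70 (-2.43 ± 0.19, adjusted p = 9.86e-05). Of the zinc finger factors, Egr1 fell by 2.11 ± 0.45 and Egr2 by 1.98 ± 0.30. Egr4, a relative outside the list, was at -5.51, -5.88 and -6.34 at day 5 and below background at day 8, at least 2.82-fold lower. The call of Egr4 ended with normexp background correction (adjusted p = 0.468; 0.000291 to 0.468 over its alternatives).

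The members that switch such signals off fell with them. Dusp1, a phosphatase that inactivates MAP kinases, read 5.74, 5.76 and 5.67 at day 5 and 3.81, 4.01 and 4.14 at day 8 (-1.73 ± 0.14, adjusted p = 0.000115). Dusp6, the phosphatase of ERK, fell by 1.04 ± 0.22 and Zfp36, which speeds the decay of cytokine transcripts, by 0.85 ± 0.16. Myc, the growth factor-induced regulator, fell by 1.73 ± 0.22, Ier2 by 1.67 ± 0.20, Ier3 by 1.09 ± 0.17 and Klf2 by 0.92 ± 0.17. The Jun genes were not called: Jun had a difference of -0.29, Junb of -0.21 and Jund of -0.52. Nr4a2 lay the other way at 0.49 ± 0.16 (adjusted p = 0.0716), and Nr4a3 and Btg2 were too dim to be tested.

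Further regulators were called lower. Sik1, a kinase induced by cyclic AMP, went from 2.73, 2.56 and 2.22 to 0.43, 0.62 and -0.28 (-2.24 ± 0.22, adjusted p = 0.00038). Trib1, a pseudokinase that marks proteins for decay, fell from -1.5, -1.55 and -1.77 to -4.45, -3.87 and -3.97 (-2.49 ± 0.17, adjusted p = 4.41e-05). Nfkbiz, an inducible nuclear partner of NF-kappaB, went from 1.04, 0.29 and 0.55 to -1.88, -1.71 and -2.08 (-2.51 ± 0.22, adjusted p = 0.000219), and its other 2 probes fell by 2.33 and 2.29. That the stages did not overlap was a condition for naming these 3 genes. Ppp1r15a, which ends the stress-induced block of translation, fell by 1.24 ± 0.14 and Gadd45g, an inducible stress gene, by 1.48 ± 0.15. Its relative Gadd45a rose by 0.64 ± 0.11, a call that ended with the slide block (adjusted p = 0.0616; 0.00548 to 0.0799).

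**Figure D3:**
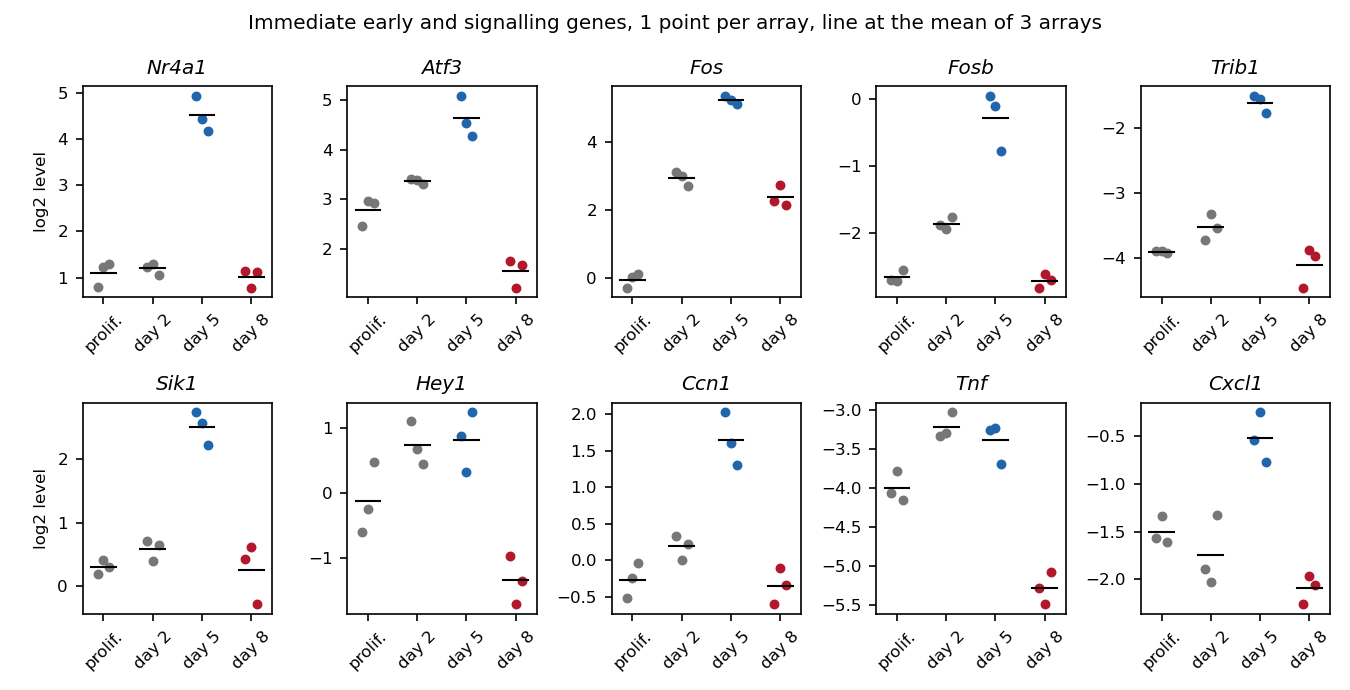
Level of 10 immediate early, signalling and cytokine genes on every array (vertical, log2 intensity minus the 75th percentile; each panel has its own scale) at the 4 stages, with a line at the mean of 3 arrays. Nr4a1 is at 4.18 to 4.95 at day 5 and at 0.78 to 1.14 at day 8, and in none of the 10 panels do day 5 and day 8 overlap. The rule for the largest falls required this of Nr4a1, Atf3, Fos, Fosb, Trib1 and Sik1.

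Some secreted proteins were lower and others higher. Ccn1 (Cyr61), a matricellular protein, read 2.03, 1.61 and 1.30 at day 5 and -0.60, -0.11 and -0.34 at day 8 (-2.0 ± 0.21, adjusted p = 0.000517), and Ccn2 (Ctgf) fell by 1.18 ± 0.23. Of 27 chemokines and cytokines 3 rose and 4 fell (25.9% against 14.1%, median -0.06). Tnf, tumour necrosis factor, went from -3.26, -3.23 and -3.69 to -5.28, -5.49 and -5.08 (-1.89 ± 0.18, adjusted p = 0.000254). Cxcl1, a neutrophil chemokine, fell by 1.57 ± 0.20 and Ccl2, a monocyte chemokine, by 1.33 ± 0.37. Ccl8 rose, from -0.05, -0.09 and 0.16 to 1.30, 1.41 and 1.42 (1.37 ± 0.16), as did the nuclear cytokine Il33 (0.93 ± 0.19) and the neurotrophin Bdnf (0.93 ± 0.15).

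Notch is a contact signal that holds muscle precursors undifferentiated, and some transcripts of its pathway fell. Of 18 Id and Notch genes tested, 6 were called lower and 1 higher (38.9% against 14.1% of all named genes, median -0.40, -0.37 within the slide), and 2 lower with the slide block, where 3.51% of named genes were called. Leaving out 1 array gave 2 to 5 lower, fewest without day 8 array 1. Hey1, a target repressor, was at 0.88, 0.33 and 1.24 at day 5 and at -0.97, -1.70 and -1.34 at day 8 (-2.15 ± 0.32, adjusted p = 0.00256). Heyl fell by 1.15 ± 0.25, Hes1 by 0.57 ± 0.13, the feedback inhibitor Nrarp by 0.71 ± 0.12, the ligand Dll1 by 0.83 ± 0.20 and Lfng, which modifies the receptor, by 0.52 ± 0.13. The calls of Heyl and Dll1 ended with the slide block (adjusted p = 0.16, 0.0129 to 0.228 over the alternatives of Heyl; 0.221, 0.00775 to 0.221 for Dll1). The receptors Notch1, Notch2 and Notch3 had differences of -0.37, 0.13 and -0.07 and did not pass. Id2, an inhibitor of helix-loop-helix factors, rose by 0.62 ± 0.17.

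Genes of DNA replication fell further in the last 3 days. Of 34 S-phase genes tested, 0 were called higher and 24 lower, 70.6% of the list against 14.1% of all named genes, with a median of -0.70 (-0.71 within the slide). With the slide block 5 were called lower (background 3.51%), and leaving out 1 array gave 12 to 20, fewest without day 5 array 1. All 24 had their lowest mean of the 4 stages at day 8. Being called lower at day 8 than at day 5, they could not have had it at day 5. Tk1, thymidine kinase, read 3.34, 2.83 and 2.70 at day 5 and 1.28, 1.46 and 1.39 at day 8. It fell 3.00-fold (-1.58 ± 0.18, adjusted p = 0.000683) from a mean that had been 5.72 in proliferating cells. Mcm10 and Cdc6, which load and start the replicative helicase, fell by 1.37 ± 0.22 and 1.23 ± 0.20, and both calls ended with the slide block (adjusted p = 0.055, 0.00159 to 0.0693 over the alternatives of Mcm10; 0.0573, 0.00276 to 0.119 for Cdc6).

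The promoter of the helicase subunit Mcm6 is shown as an example that carries a sequence known from S-phase genes. Mcm6 fell by less than Tk1, Mcm10 and Cdc6, and most called members lack the sequence. Capitals mark TTTNNCGC, the core of the E2F site, on either strand, chosen after results were seen. In Mcm6, 2 of the 3 matches overlap. The core stands in 4 of 21 called S-phase genes with a promoter in the table (19%), in 7 of 28 of the list (25%) and in 722 of 10514 tested genes (6.87%). The window is chr1:128359706-128359955 (-) of GRCm38.p6, from RefSeq.
Mcm6: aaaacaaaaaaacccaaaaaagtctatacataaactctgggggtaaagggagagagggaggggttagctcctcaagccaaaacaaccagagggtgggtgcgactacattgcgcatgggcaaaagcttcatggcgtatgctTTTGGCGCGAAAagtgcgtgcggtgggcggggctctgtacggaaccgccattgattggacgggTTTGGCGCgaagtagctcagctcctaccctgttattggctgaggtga

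Mcm6 stood at 4.41, 4.40 and 4.86 at day 5 and at 3.91, 4.02 and 3.54 at day 8, lower on all 3 arrays by 0.73 ± 0.17 (adjusted p = 0.0201). Of the other subunits, Mcm2 fell by 0.65 ± 0.17 and Mcm7 by 0.59 ± 0.14, while Mcm3 (-0.69), Mcm4 (-0.23) and Mcm5 (-0.84) did not pass. Pcna, the sliding clamp, fell by 0.80 ± 0.21, the nucleotide reductase subunit Rrm2 by 1.15 ± 0.24, and Uhrf1, which maintains DNA methylation, by 1.11 ± 0.20. E2f2 fell by 1.19 ± 0.13 and E2f1, not called, had a difference of -0.54.

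Mitotic genes were lower as well: of 30 tested 0 were called higher and 10 lower (33.3%), with a median of -0.54 (-0.61 within the slide). With the block 3 were called lower, and leaving out 1 array gave 7 to 13, most without day 8 array 2. Mad2l1, a spindle checkpoint protein, went from -1.75, -2.13 and -1.75 to -2.91, -2.90 and -3.41 (-1.19 ± 0.18, adjusted p = 0.00261). Birc5, survivin, fell by 1.18 ± 0.23 and Plk1, a mitotic kinase, by 0.89 ± 0.14. Kif20a, a motor of cytokinesis, was not well above background on any day 8 array, and its bound was 1.73-fold (adjusted p = 0.0183). Mki67, the proliferation marker Ki-67, had a difference of -0.50 ± 0.25 that did not pass (adjusted p = 0.209).

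**Figure D4:**
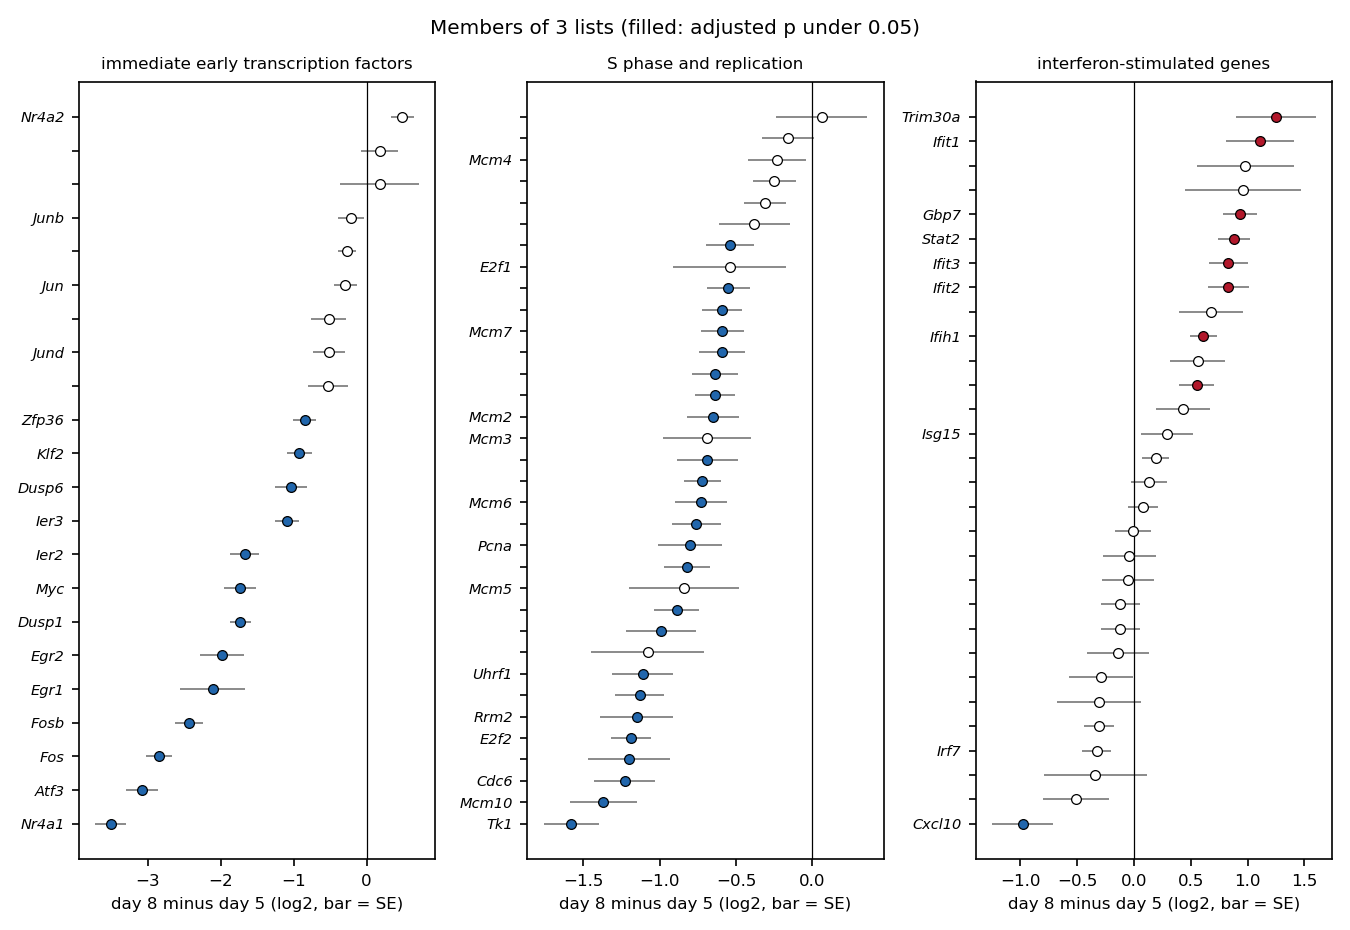
Difference between day 8 and day 5 (horizontal, log2, bars are 1 SE) for each tested member of 3 lists; filled points passed the adjusted threshold, and names stand beside members described in the text. In the immediate early list 13 of 22 members and in the S-phase list 24 of 34 are filled to the left of 0, and in the interferon list 8 of 30 are filled to the right.

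Interferon-stimulated genes, which carry the antiviral response, were in part higher. Of 30 tested, 8 were called higher and 1 lower, 30.0% against 14.1%, with a median of 0.16 (0.13 within the slide). The slide block called 0 of them by limma's test, and leaving out 1 array gave 3 to 6 higher, fewest without day 5 array 1. The median stayed above 0 in each setting run. Trim30a, a regulator of inflammatory signalling, rose by 1.25 ± 0.35 (adjusted p = 0.0385), from -5.69, -5.66 and -6.49 to -4.59, -5.12 and -4.39. Ifit1, which binds foreign RNA ends, rose by 1.11 ± 0.30, from -5.01, -4.51 and -5.11 to -3.95, -3.99 and -3.36. Gbp7, a guanylate-binding GTPase, rose by 0.93 ± 0.15 (adjusted p = 0.00334), from -3.19, -3.33 and -3.23 to -2.20, -2.55 and -2.20. All day 8 arrays lay above all day 5 arrays on these 3 genes, on 13 of the 30 and on 17.2% of all named genes. The call of Trim30a was lost under 11 alternatives and that of Ifit1 under 9.

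Ifit3 rose by 0.83 ± 0.17, Ifit2 by 0.83 ± 0.18, Stat2, which carries the signal to the nucleus, by 0.88 ± 0.14, and Ifih1, an RNA sensor, by 0.61 ± 0.12. Cxcl10, a chemokine that both interferon and NF-kappaB induce, fell by 0.98 ± 0.27, a call lost under 13 alternatives. Isg15 had a difference of 0.29 and Irf7 of -0.33, and neither passed. Some of these families are close copies, and cross-binding of their probes was not tested.

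Capitals in the next promoters mark GAAA, any 2 bases, and GAAA again, the core of the interferon-stimulated response element, read on either strand. It is in 5 of 7 called higher with a promoter in the table (71.4%), in 14 of 25 of the list (56%), in 272 of 10514 tested genes (2.59%) and in 23 of 689 of all genes called higher (3.34%). Trim30a spans chr7:104465194-104465443 (-), Ifit1 chr19:34640639-34640888 (+), Gbp7 chr3:142530086-142530335 (+) and Ifit3 chr19:34583279-34583528 (+) of GRCm38.p6, from RefSeq.
Trim30a: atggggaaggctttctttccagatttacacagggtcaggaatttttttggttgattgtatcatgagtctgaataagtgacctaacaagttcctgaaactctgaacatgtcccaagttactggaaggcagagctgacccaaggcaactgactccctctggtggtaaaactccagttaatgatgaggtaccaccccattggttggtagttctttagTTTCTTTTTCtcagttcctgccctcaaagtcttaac
Ifit1: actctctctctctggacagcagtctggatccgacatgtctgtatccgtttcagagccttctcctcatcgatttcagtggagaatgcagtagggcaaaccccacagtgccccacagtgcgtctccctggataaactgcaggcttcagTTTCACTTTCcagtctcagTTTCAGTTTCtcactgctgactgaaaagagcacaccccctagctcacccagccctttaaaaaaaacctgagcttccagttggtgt
Gbp7: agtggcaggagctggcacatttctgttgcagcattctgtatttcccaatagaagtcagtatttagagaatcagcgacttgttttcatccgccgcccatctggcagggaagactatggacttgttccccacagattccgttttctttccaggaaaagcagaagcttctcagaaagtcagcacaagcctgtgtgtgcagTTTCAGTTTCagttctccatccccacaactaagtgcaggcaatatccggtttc
Ifit3: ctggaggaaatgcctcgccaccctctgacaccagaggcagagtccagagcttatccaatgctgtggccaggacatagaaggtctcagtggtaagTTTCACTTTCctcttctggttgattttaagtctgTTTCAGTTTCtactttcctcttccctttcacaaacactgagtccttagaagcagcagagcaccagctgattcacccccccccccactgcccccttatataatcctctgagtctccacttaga

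Of the 4 matrix lists, collagens and proteoglycans had more members called higher than lower. Proteases and adhesion receptors had 12% and 8.33% of tested genes called, below the 14.1% of all named genes. Of 26 collagens and their cross-linkers 7 rose and 1 fell (30.8% called, median 0.30, 0.42 within the slide). Col3a1, fibrillar collagen III, read 3.81, 4.11 and 3.80 at day 5 and 4.78, 4.61 and 4.74 at day 8 (0.80 ± 0.15, adjusted p = 0.00822). Lox, the enzyme that cross-links collagen, rose from 3.20, 3.52 and 3.31 to 4.21, 4.37 and 4.36 (0.97 ± 0.12, adjusted p = 0.00122). Col8a2 rose by 1.07 ± 0.20 and Col11a1 by 1.02 ± 0.20. The calls of Col11a1, Col3a1 and Col8a2 ended with the slide block (adjusted p = 0.05, 0.000962 to 0.139 over the alternatives of Col11a1; 0.0573, 0.00339 to 0.0693 for Col3a1; 0.1, 0.00231 to 0.137 for Col8a2). Col4a2, a basement membrane chain, fell by 0.66 ± 0.18, and Col1a1, spread over 3.60 to 5.13 at day 5, had a difference of -0.75 ± 0.46 that did not pass. With the slide block 1 collagen gene was called, and leaving out 1 array gave 4 to 7 higher.

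Of 29 proteoglycans and glycoproteins 8 rose and 2, Ccn1 and Ccn2, fell (34.5% called against 14.1% of all named genes, median 0.32, and 0.58 under quantile normalization). Cilp, a cartilage matrix protein, went from 0.55, 0.99 and 0.77 to 2.85, 2.47 and 3.04 (2.02 ± 0.44, adjusted p = 0.0146). Lum, lumican, a small proteoglycan that orders collagen fibrils, went from -3.93, -3.83 and -3.87 to -2.36, -1.99 and -1.95 (1.78 ± 0.40, adjusted p = 0.0165). Both calls ended with the slide block at the same size (adjusted p = 0.12, 1.44e-05 to 0.156 over the alternatives of Cilp; 0.0893, 0.000508 to 0.173 for Lum). Vcan, versican, a large hyaluronan-binding proteoglycan, rose by 1.17 ± 0.12 (adjusted p = 0.000397), Omd by 1.25 ± 0.25 and Fbln5, an elastic fibre protein, by 1.00 ± 0.19. Of 25 matrix proteases and inhibitors 0 rose and 3 fell, among them Plau, the urokinase protease (-0.85 ± 0.14), whose call ended with the slide block (adjusted p = 0.0945; 0.00341 to 0.113). Of 24 integrins, laminins and adhesion receptors 0 rose and 2, Itgb5 and Dag1, fell (median -0.03). Both calls ended with the slide block. The other Itgb5 probe had a difference of 0.12 and was not called, and the call of Dag1 was lost under 13 alternatives.

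Wnt signalling genes had a median of 0.42 (0.42 within the slide), with 5 of 23 called higher and 1 lower (26.1% against 14.1%); the median was above 0 under each scaling run. Lgr5, the R-spondin receptor known as a stem cell marker in gut, read -4.08, -3.99 and -3.80 at day 5 and -0.26, -0.51 and -0.39 at day 8. It rose 11.9-fold (3.57 ± 0.15, adjusted p = 1.73e-06), and by 3.41 within the slide. The mean had been -6.66 in proliferating cells and -4.69 at day 2. Of secreted Wnt inhibitors, Sfrp2 rose by 1.5 ± 0.31, Dkk2 by 1.06 ± 0.20 and Sfrp1 by 0.81 ± 0.12, and the feedback inhibitor Axin2 by 0.66 ± 0.14. Wnt9a, a ligand, fell from 2.35, 2.14 and 2.70 to 1.11, 0.76 and 0.29 (-1.68 ± 0.29, adjusted p = 0.00506).

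Of 24 genes of TGF-beta, myostatin and BMP signalling 5 rose and 2 fell (29.2% against 14.1% of all named genes, median 0.28), and 0 were called with the slide block or without day 5 array 1. Nog, noggin, which traps BMPs, went from -2.84, -3.84 and -3.75 to -5.66, -5.95 and -6.00 (-2.39 ± 0.55, adjusted p = 0.0191; 0.0717 with the slide block and 0.00833 to 0.202 over its alternatives). Ltbp1, which holds latent TGF-beta in the matrix, rose by 1.12 ± 0.23 (adjusted p = 0.179 with the slide block; 0.00539 to 0.215). The receptors Tgfbr1, Tgfbr3 and Acvr2a rose by 0.52 ± 0.13, 0.71 ± 0.15 and 0.69 ± 0.16.

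Genes of energy metabolism were called at a share near or below that of all named genes. Of 44 genes of oxidative phosphorylation 0 rose and 4 fell, 9.09% against 14.1%, while the median was -0.33 (-0.37 within the slide and -0.19 under quantile normalization). Without day 5 array 1 or day 8 array 2 none of them was called. Cox6b1, a subunit of cytochrome oxidase, fell by 0.73 ± 0.18 (adjusted p = 0.0966 with the slide block; 0.00283 to 0.13). Among 28 genes of glycolysis and glycogen 2 rose and 2 fell (14.3%, near the 14.1% of all named genes). Ppp1r3c, which targets a phosphatase to glycogen, rose from -2.91, -2.55 and -2.86 to -1.5, -1.62 and -1.35 (1.28 ± 0.18). Ppp1r3a, its muscle relative, was below background at day 5 and at least 2.06-fold higher at day 8, a call that ended with the slide block (adjusted p = 0.235; 0.00793 to 0.26). Gys1, glycogen synthase, fell by 1.1 ± 0.33, and this call was lost under 14 alternatives. Pdk4, the kinase that spares glucose by blocking pyruvate dehydrogenase, rose from 1.91, 1.70 and 1.98 to 2.90, 3.19 and 2.81 (1.1 ± 0.14, adjusted p = 0.00126). The atrophy ligases Trim63 and Fbxo32 had differences of 0.01 ± 0.29 and -0.27 ± 0.15.

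**Figure D5:**
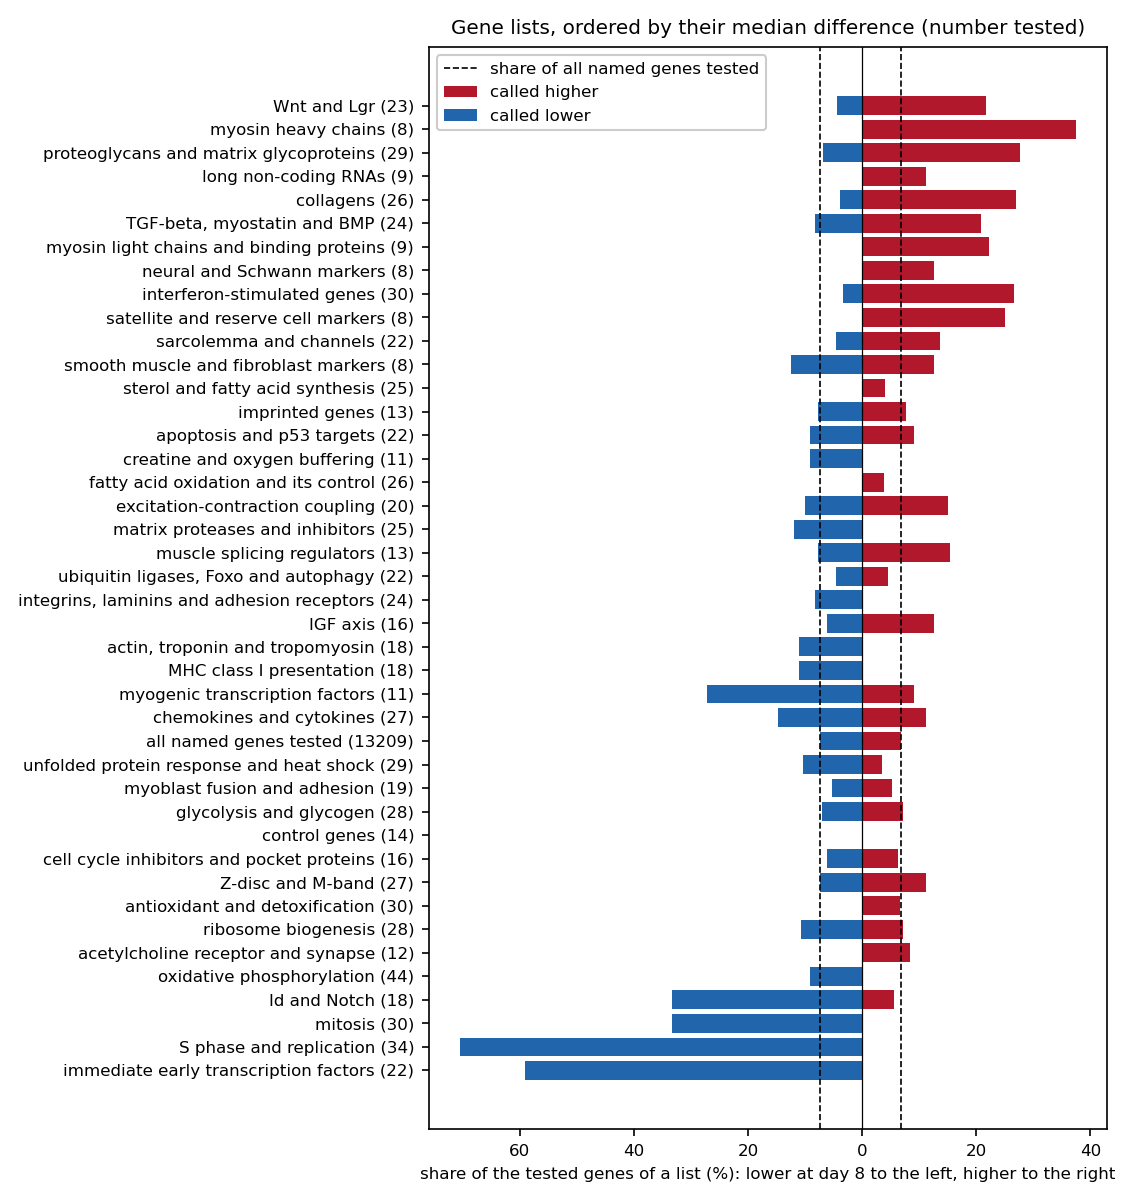
Share of the tested genes of each list called lower (blue, left) or higher (red, right) at day 8, for lists with at least 8 tested members, ordered by their median difference; dashed lines mark 7.37% lower and 6.73% higher over all named genes. The S-phase list reaches 70.6% and the immediate early list 59.1% on the left, and the 14 control genes have 0 calls.

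The remaining large movers belonged to no list. Angptl7, a secreted angiopoietin-like protein, read -7.99, -7.80 and -8.92 at day 5, with 1 array well above background, and -4.67, -4.70 and -4.64 at day 8 (3.57 ± 0.26, adjusted p = 7.18e-05). Fgf13, an intracellular partner of sodium channels, rose from -3.83, -3.64 and -3.63 to -1.1, -0.83 and -1.02 (2.72 ± 0.48, adjusted p = 0.00623; 0.0843 with the slide block and 2.45e-05 to 0.105 over its alternatives). Sema5b, a semaphorin guidance protein, was below background at day 5 and at least 2.64-fold higher (adjusted p = 0.00192). Pth2, a neuropeptide, rose from -6.61, -6.49 and -6.91 to -3.79, -4.11 and -3.95, and H2ac6, a histone with near-identical copies, from -7.81, -7.25 and -7.48 to -4.35, -4.86 and -4.98. Iqcf5 was below background at day 5 and at least 8.36-fold higher at day 8, at a mean of -4.41. It had been well above background on all 3 arrays of proliferating and of day 2 cells, at means of -4.65 and -5.41. Arhgap25, a Rac regulator, was at least 2.11-fold higher from below background. These calls came from dim day 5 signals, those of Sema5b, Iqcf5 and Arhgap25 ended with normexp correction, and the slide block ended those of Pth2, Iqcf5 and Arhgap25 (adjusted p = 0.167, 0.145 and 0.259; 0.0022 to 0.205, 0.00562 to 0.175 and 0.00203 to 0.35 over their alternatives).

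Among falls, Il17b, a cytokine of the interleukin 17 family, went from -3.35, -3.20 and -3.43 to -5.79, -5.75 and -5.24 (-2.27 ± 0.26, adjusted p = 0.000727). Cela2a, an elastase, and Btbd35f18, of a multicopy family, were below background at day 8, at least 3.79-fold and 2.60-fold lower. Btbd35f18 read -7.24, -6.41 and -4.42 at day 5, so that array 3 carried the highest value. Under the slide block Cela2a had an adjusted p = 0.113 (0.00443 to 0.523), and with normexp correction neither gene was called. The call of Btbd35f18 was lost under 7 alternatives, leaving out any 1 day 8 array among them. Of the 12 largest rises among mRNA probes 6 kept their call with the slide block and 4 in every setting where they had a value. Of the 12 largest falls these numbers were 10 and 8.

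The array was built to profile long non-coding RNAs. Of 6239 tested probes of the non-coding set 738 were called (11.8%), 336 higher and 402 lower, with a median of -0.07, against 2189 of 15682 mRNA probes (14%). The set comprised 177 curated non-coding RNAs with 18 called (10.2%), 140 probes of ultraconserved elements with 16 (11.4%) and 5922 other transcripts with 704 (11.9%). Most of the latter are known by accession alone, and whether they are non-coding was not tested. With the slide block 241 probes of the set were called. Of 46 probes of genes marked as lncRNA in the reference, 2 were called higher and 1 lower.

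Neat1, the long non-coding RNA that scaffolds nuclear paraspeckles, stood at -0.49, 0.13 and -0.35 at day 5 and at 1.63, 1.87 and 1.37 at day 8. It rose 3.63-fold (1.86 ± 0.26, adjusted p = 0.00205) and by 1.97 within the slide, from stage means of 0.69 in proliferating cells and -0.87 at day 2. Malat1, its abundant neighbour, was higher on all 3 day 8 arrays, but 0.47 ± 0.15 did not pass (adjusted p = 0.0676). Of 9 lncRNAs of the list that were tested, Neat1 was called and 0 fell. The list's other genes, H19 among them, were too dim to be tested or not matched by symbol.

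Of the other largest changes in the non-coding set, Gm5039 rose from -6.72, -6.52 and -6.22 to -2.85, -3.36 and -3.11 (3.38 ± 0.43, adjusted p = 0.00123), and had not been well above background at the earlier stages. AK149390 rose from -5.33, -5.18 and -4.95 to -2.19, -2.52 and -2.37 (2.80 ± 0.20, adjusted p = 6.83e-05). AK081596 fell from -2.73, -3.26 and -3.70 to -6.68, -5.13 and -5.93 (-2.68 ± 0.34, adjusted p = 0.00124), and BC056623 from -2.31, -2.64 and -1.91 to -5.05, -4.34 and -5.17 (-2.57 ± 0.30, adjusted p = 0.000853). These 4 transcripts kept their call in every setting where they had a value. AK085581, below background at day 8 and at least 2.35-fold lower, read -6.99, -6.82 and -4.70 at day 5, highest on array 3. The remaining transcripts named by the rule were uc008zfa (2.58 ± 0.52), uc007pgs (2.60 ± 0.77) and uc008hhr (2.48 ± 0.57), all higher, and AK078736 and AK006520, at least 2.27-fold and 2.77-fold lower. The call of uc007pgs was lost under 14 alternatives and that of uc008hhr under 9. Under the slide block uc007pgs had an adjusted p = 0.233 (0.00385 to 0.352), uc008hhr 0.185 (0.00454 to 0.229) and AK006520 0.0506 (0.00211 to 0.8). With normexp correction AK085581, AK078736 and AK006520 were not called.

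The step from proliferation to day 2, which shares no array with the step from day 5 to day 8 but shares a slide, called 7029 of the same 21921 probes (32.1%), 4243 higher and 2786 lower. Of the 1416 probes higher at day 8 than at day 5, 357 (25.2%) were higher and 383 (27.0%) lower at the early step. Of the 1511 lower at day 8, 387 (25.6%) were higher and 121 (8.01%) lower at the early step. The early step called 19.4% of all these probes higher and 12.7% lower. That slide holds 2 arrays of day 2 and 2 of day 5, and its part in these counts was not tested. Fos had means of -0.03, 2.94, 5.23 and 2.39 at the 4 stages in order.

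Of the markers of macrophages, blood vessels and fat cells some were well above background and others were not. Of 10 macrophage markers 3 were tested, Csf1r, Aif1 and Lyz2, each well above background on all 6 arrays. Ptprc, Adgre1 and Itgam were not well above background on any of the 6. Csf1r rose by 0.61 ± 0.17, a call lost under 10 alternatives. The summed signal of the macrophage markers tested was 0.187 to 0.216 times the array's 75th percentile at day 5 and 0.237 to 0.278 at day 8. Of 8 endothelial markers 2, Tek and Egfl7, were tested and of 8 adipocyte markers 2, Pparg and Cebpa, with 0 called. The tested ones were well above background on all 6 arrays. Pecam1 was well above it on 2 day 5 arrays and 1 day 8 array, and Cdh5 on 2 arrays of each stage. Vwf, Adipoq, Fabp4 and Plin1 were not well above background on any of the 6 arrays. Other lists held more signal: 8 of 10 neural and Schwann markers, 6 of 10 osteoblast and chondrocyte markers and 6 of 11 epithelial markers were tested. Of these, Nefl, a neurofilament, was called higher (day 5 mean 0.26, day 8 mean 1.06), a call lost under 3 alternatives. Dmp1, a bone matrix protein, was called lower (-3.79 and -4.69), a call lost under 15 alternatives. No epithelial marker was called by limma. The summed signal of the neural list was 18.4 to 21.2 times the percentile at day 5 and 17.8 to 19.2 at day 8. That of the bone and cartilage list was 10.7 to 11.1 and then 12.3 to 14.2. That of the epithelial list was 6.18 to 6.81 and then 6.87 to 7.51.

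Of each list of mononucleated cell markers 25% of the tested genes were called, against 14.1% of all named genes. Of 8 smooth muscle and fibroblast markers Pdgfra, a fibroblast receptor, rose by 1.26 ± 0.20 and Acta2, smooth muscle actin, fell by 1.03 ± 0.18. The call of Pdgfra ended with the slide block at the same size (adjusted p = 0.0582; 0.00317 to 0.0582 over its alternatives). The summed signal of the list ran from 231 to 256 times the percentile at day 5 and from 203 to 273 at day 8. Of 8 genes tested in the satellite and reserve cell list Cd34 (0.69 ± 0.17) and Tcf4 (0.97 ± 0.25) were called higher, both calls being lost with the slide block. Tcf4 encodes a broadly expressed helix-loop-helix factor and is not a marker specific to these cells. The summed signal of the list, Tcf4 included, was 28.9 to 33.0 and then 37.4 to 46.8. Pax7 had a difference of -0.07. The part of these markers in the rise of the matrix genes was not tested. None of 14 control genes was called by limma, and their median was -0.11.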

How the data were processed

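RNA of C2C12 cells (1 µg total RNA a sample, Cy3) was hybridised to a one-colour Agilent custom array. The deposited scanner files give a processed intensity for each spot, after the scanner software's own background treatment per the file headers. That software was, in the submitters' processing notes, version 10.5.1.1 of Agilent Feature Extraction. From these intensities, control spots were left out, spots of a probe averaged, and log2 taken and centred on each array's 75th percentile. The 4 stage means of 12 arrays were fitted with limma 3.58.1 in R 4.3.3 with Benjamini-Hochberg adjustment. Signals ran from 1290 to 1990 at that percentile over the arrays, with 0 saturated spots, and 3 arrays a stage limit the precision.

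A gene was read from its brightest tested probe. The rule named the 12 largest rises and falls among mRNA probes, 5 each in the non-coding set, the 3 largest called genes of each list, and a fixed set of muscle genes. The largest rises and falls came only from called genes whose day 5 and day 8 arrays did not overlap. Their higher stage also had to be well above background on all 3 arrays. Further list members named in the text were chosen after their values were seen. The comparison and the lists were chosen with earlier results of these data known. Promoters came from RefSeq (GRCm38.p6; 10514 of 13209 tested named genes matched). Alternatives covered background (normexp on the median signal, offset 50, since no mean signal was used here), scaling, filters, slide, pairing and leaving out arrays. The code was tested on simulated data. A few genes are not reported here.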

Additional observations from a re-analysis of the deposited data

How the results depend on the processing

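The main setting called 2927 probes (1416 higher, 1511 lower), 738 in the non-coding set and 180 members of the gene lists. Normexp background correction gave 1871 (1040 higher, 831 lower), with 393 in the non-coding set, and turned the sign of 45 probes called before. No filter on dim probes gave 1286 (608 and 678), 344 and 103. The slide block gave 794 (459 and 335), 241 and 51, and the shared slide alone 512 (298 and 214), 149 and 43. Leaving out non-uniform spots gave 276 (77 and 199), 118 and 6 of fewer probes, and with the percentile from all spots, an alternative chosen after seeing the data, 1282 (688 and 594), 433 and 44. Leaving out 1 array gave 1207 to 3082 probes, 649 to 1157 higher and 558 to 1925 lower, 296 to 998 in the non-coding set and 101 to 160 list members, in each case lowest without day 5 array 1 and highest without day 5 array 3. The cause of these shifts was not tested.

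Of 126 named genes that were called, 35 kept the call in every setting that gave a value, and 74 lost it with the slide block. Kif20a alone reversed, at 0.05 with normexp, where it was not called (adjusted p = 0.867; limma).

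The replicate numbers did not pair the arrays. Same-numbered arrays of days 5 and 8 deviated from their stage means with correlations of 0.0838, 0.0257 and -0.0651, and the replicate block called 2538 probes (1240 higher, 1298 lower). Only day 5 array 3 lies on the day 8 slide, so slide and stage are separated by that array alone.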
